A study of Mus musculus with 32 samples.

Results

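The genes described here are the conjugating enzymes of mouse liver and the detoxification enzymes under the transcription factor NRF2. They were chosen by name: every gene whose symbol starts with Gst, Mgst, Ugt1, Ugt2, Ugt3 or Sult, together with Nqo1, Gclc, Gclm, Txnrd1, Srxn1, Hmox1 and Ephx1. Of 52 such genes with a named probe, 48 were detected (detection p under 0.05) on at least 8 of 32 arrays and are the members below, out of 8853 genes tested. The other 4 fell short: Gsto2 was detected on 6 arrays, Sult3a1 on 5, Sult1e1 on 3 and Ugt2a1 on 2. Gsr also belongs to the rule and was not analysed here.

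The livers came from female ApoE3Leiden mice, a strain with a variant of human apolipoprotein E as a transgene, whose plasma cholesterol rises when it is fed cholesterol. All 32 mice ate a high-cholesterol diet, and no group without that diet was analysed here. The HC group had that diet alone. Rosuvastatin was added in the HC+RSV group, ezetimibe in the HC+EZE group, and both in the HC+RSV+EZE group, each of 8 livers. The sources used here give no dose, duration or age. Rosuvastatin is a statin, which lowers cholesterol synthesis, and ezetimibe blocks cholesterol uptake from the intestine. Each liver was measured on 1 Illumina bead array.

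Conjugation attaches a water-soluble group to a drug, a hormone or a reactive product of metabolism so that it can leave the cell. Glutathione S-transferases (Gst, and the membrane-bound Mgst) attach glutathione, UDP-glucuronosyltransferases (Ugt) attach glucuronic acid, and sulfotransferases (Sult) attach sulfate. NRF2, encoded by Nfe2l2, is held back by KEAP1 and released by oxidants and electrophiles, whereupon it binds antioxidant response elements near its target genes. Nqo1, Gclc, Gclm, Txnrd1, Srxn1 and several Gsta and Gstm genes are among its targets in liver.

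None of the 48 genes passed the threshold in any drug comparison, alone, combined or in interaction. The same genes differed widely between single livers: Gsta1 spanned 4.26 to 12.15 on the log2 intensity scale within the 32 livers, and Gsta2, Gstm1, Gstm3 and Srxn1 were higher in every even-numbered liver than in any odd-numbered one. That division ran with the array chip, which is a technical grouping, and the 2 cannot be told apart.

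The values are log2 intensities after background correction, the addition of an offset of 16 and quantile normalization. A level is compared only within 1 gene, since probes differ in their response. The mean intensity per array was 126.1 to 279.9 before normalization, and 10724 to 13444 probes were detected per array. Precision is limited by how many arrays there are. The labels place the arrays on 6 chips, numbered here 1 to 6 in the order of their names in the labels, and every chip held all 4 diet groups. Array position on the chip ran with both drugs. HC arrays lay at positions 1 and 2 and HC+RSV arrays at 2 and 3. HC+EZE arrays lay at positions 6 and 7 and HC+RSV+EZE arrays at 7 and 8. Every array with ezetimibe thus lay at position 6 or above and every array without it at 3 or below. Ezetimibe and position can therefore not be told apart. Rosuvastatin and position overlapped in part and cannot be fully told apart. The arrays least like the others, by mean correlation, were HC+RSV replicate 3 (0.926, chip 1), HC replicate 1 (0.937, chip 4), HC replicate 8 (0.950, chip 5) and HC+EZE replicate 1 (0.951, chip 3). All 7 hepatocyte markers examined, among them Alb, Apoa1 and Ttr, were detected on all 32 arrays. In bulk liver, fewer cells of a type and less RNA per cell cannot be told apart.

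Of the 48 members, 40 were detected on all 32 arrays. Mgst2 was detected on 13, Sult1b1 on 10, Sult2b1 on 16, Sult4a1 on 12 and Sult5a1 on 23, and their values lie near the lower end of the scale. Gsta1 was not detected on 3 arrays, all on chip 1. Gstm3 was not detected on 4 arrays, 3 of them on chip 1 and 1 on chip 3, and Nqo1 on 1 array of chip 1. The low values of these genes are therefore close to what the array can measure. Members with near-identical relatives, such as Gsta1 and Gsta2 or Gstp1 and Gstp2, can share signal on 1 probe. The Ugt1 transcripts share their last exons, so that a probe there cannot tell them apart.

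The redox enzymes had overlapping levels in the 4 diets. Nqo1 (chr8:107388225-107403205, GRCm38.p6, from RefSeq's table like the positions below), a quinone reductase widely used as a readout of NRF2, ranged from 5.53 to 7.70 with a median of 6.42 in HC, from 4.97 to 7.09 with a median of 6.58 in HC+RSV, from 5.63 to 7.25 with a median of 6.77 in HC+EZE and from 4.75 to 7.69 with a median of 6.88 in HC+RSV+EZE. No diet lay apart, and the ranges of the 4 diets overlapped. Averaged over the other drug, Nqo1 differed by 0.11 ± 0.26 (SE) with ezetimibe and by 0.02 ± 0.26 with rosuvastatin. Srxn1 (chr2:152105524-152111376), which restores oxidized peroxiredoxins, ranged from 8.29 to 11.16 in HC, from 7.75 to 10.72 in HC+RSV, from 7.95 to 11.10 in HC+EZE and from 7.60 to 11.10 in HC+RSV+EZE, with means of 9.68, 9.52, 9.57 and 9.60. Its group means were closer together than any of its within-group SDs, which were 1.05 to 1.46.

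Gclc, the catalytic subunit of the enzyme that starts glutathione synthesis, had a mean of 6.44 ± 0.61 (SD, n = 8) with the diet alone, 6.17 ± 0.30 with rosuvastatin added, 6.16 ± 0.50 with ezetimibe and 6.14 ± 0.49 with both. Gclm, its regulatory subunit, had means of 9.52 ± 0.30, 9.23 ± 0.30, 9.33 ± 0.25 and 9.31 ± 0.30 in the same order. Txnrd1, thioredoxin reductase, had means of 6.57 ± 0.48, 6.37 ± 0.47, 6.47 ± 0.56 and 6.61 ± 0.56. In all 3 genes the diets' means lay closer together than the widest SD within a diet. Hmox1, which degrades heme, had means of 6.85 ± 0.65, 6.63 ± 0.69, 6.68 ± 0.34 and 6.58 ± 0.30, and Ephx1, microsomal epoxide hydrolase, means of 12.04 ± 0.41, 11.94 ± 0.36, 11.96 ± 0.53 and 11.89 ± 0.71.

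Across all 48 members the counts in each comparison were 0. With limma and Benjamini-Hochberg adjustment over the 8853 genes at 0.05, 0 members were called in HC+RSV against HC, where 0% of all genes were called. In HC+EZE against HC and in HC+RSV+EZE against HC the count was also 0, against a background of 0.0452% each. It was 0 for ezetimibe added to rosuvastatin, with a background of 0.0565%, and 0 for rosuvastatin added to ezetimibe, with a background of 0%. Averaged over the other drug, ezetimibe called 0 members against a background of 0.339% and rosuvastatin 0 against 0%. The interaction of the drugs called 0 members against 0%, and the F test among the 4 diets 0 against 0.215%. At an unadjusted p under 0.05 the members called were 1, 0, 1, 2, 0, 1, 1, 1 and 1 in that order, where all genes gave 2.68%, 3.64%, 7.46%, 7.33%, 1.71%, 9.47%, 2.37%, 1.72% and 4.97%. These comparisons share livers and are not independent of each other.

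The intervals say how large a difference could have gone unseen. For a drug difference averaged over the other drug, the 95% interval reached 0.35 to either side of the estimate in the median member, with a range from 0.15 to 1.63. The widest belonged to Gsta1, whose difference with ezetimibe was 0.31 with an interval from -1.32 to 1.94, and with rosuvastatin -0.48 with an interval from -2.11 to 1.15. In this model all 48 members had estimates below 0.5 in size for both drugs. Its spread includes the chip differences: the SD of Gsta1 was 2.48 within diets and 1.09 within diets and chips. The median difference over the members was 0.05 for ezetimibe and -0.03 for rosuvastatin, beside -0.003 and -0.001 over all genes.

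By family, ezetimibe averaged over rosuvastatin gave positive estimates in 4 of 4 Gsta genes, 5 of 6 Gstm genes and 9 of 9 other Gst genes, and in 4 of 8 Ugt2 and Ugt3 genes, with 0 called in each. The families' medians were 0.31, 0.16, 0.08 and 0.01. Estimates were negative in 5 of the 7 singly named genes (median -0.05), 2 of 3 Ugt1 genes (median -0.16) and 2 of 3 Mgst genes (median -0.03), and positive in 6 of 8 Sult genes (median 0.10). Over all members 32 of 48 were positive, beside 48.8% of all genes. For rosuvastatin averaged over ezetimibe, 8 of 8 Ugt2 and Ugt3 genes had negative estimates, between -0.23 and -0.03, with 0 called. Over all members 20 of 48 estimates were positive, beside 49.6% of all genes. Some members of these families lie in gene clusters and vary together between livers, so these counts are not counts of independent events.

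**Figure D1:**
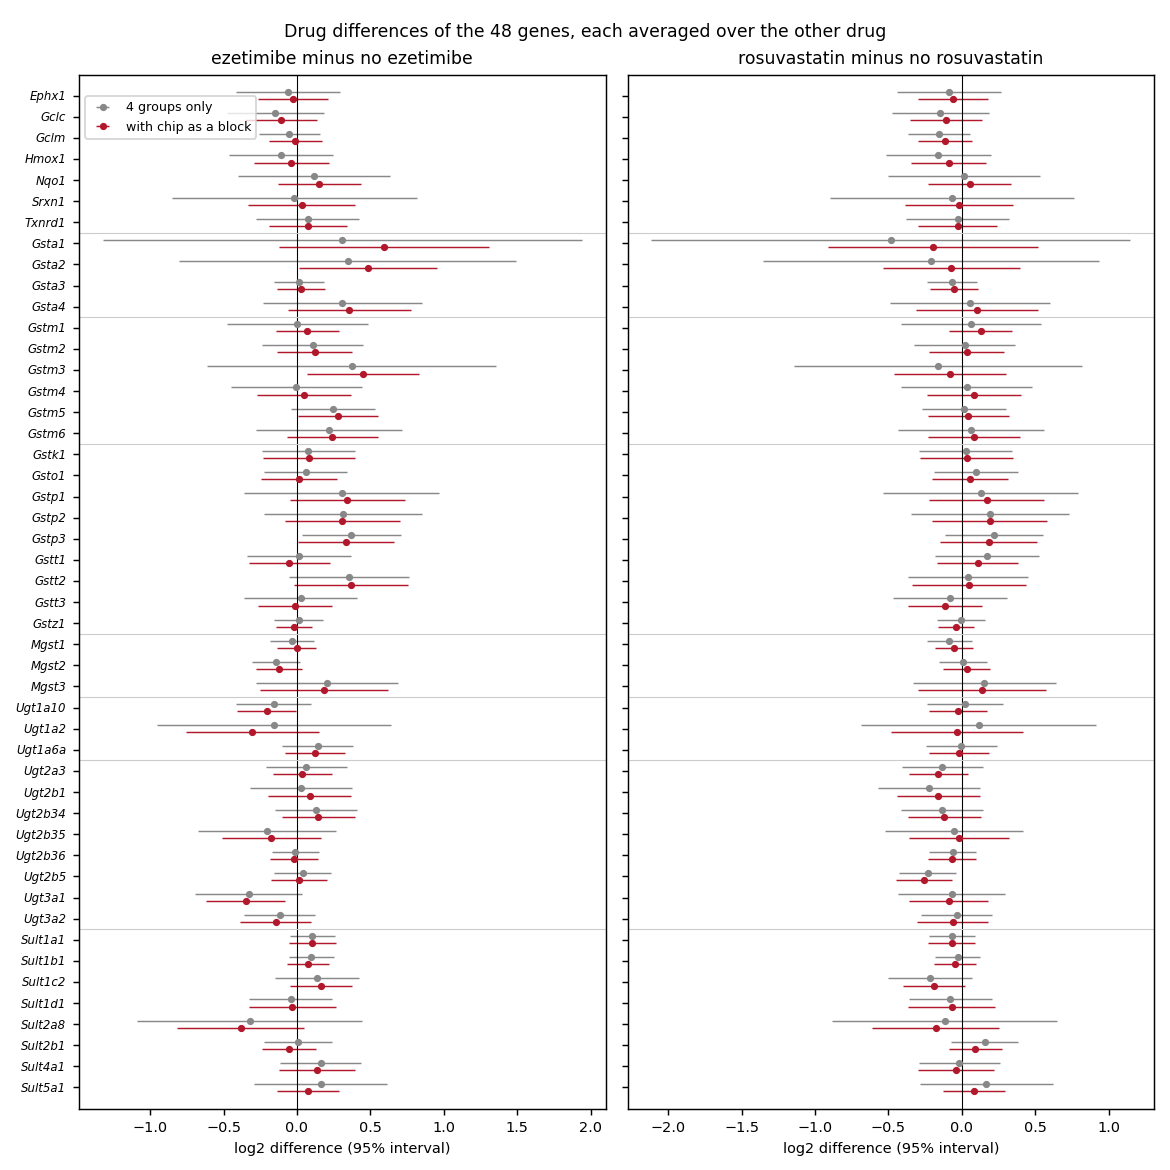
Log2 difference of each of the 48 genes with ezetimibe (left) and with rosuvastatin (right), each averaged over the other drug, with its 95% interval from limma, 16 livers against 16. Grey points come from the model of the 4 diets alone and red points from the model with chip as a block; grey lines part the gene families. The grey interval of Gsta1 runs from -1.32 to 1.94 for ezetimibe.

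Only 2 members had an unadjusted p under 0.05 in any comparison, and neither passed the adjustment. Ugt2b5 (chr5:87124946-87140340), one of the glucuronosyltransferases, ranged from 4.73 to 5.70 with a median of 5.50 in HC and from 4.70 to 5.59 with a median of 4.86 in HC+RSV. In HC+EZE it ranged from 4.69 to 5.50 and in HC+RSV+EZE from 4.89 to 5.49. Ugt2b5 was detected on all 32 arrays, but these values lie near the lower end of the scale. Its deposited intensities were 11.5 to 54.4 in HC and 10.5 to 25.4 in HC+RSV. The 7 other HC+RSV livers lay at 5.02 or below, and replicate 3, on chip 1, stood apart at 5.59. The difference of HC+RSV from HC was -0.47 ± 0.13, with an unadjusted p of 0.00136 and an adjusted p of 1 by limma. The interaction estimate was 0.47 ± 0.19 with an unadjusted p of 0.0179.

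Gstp3 (chr19:4057470-4059605), a pi-class transferase, ranged from 7.64 to 9.50 with a median of 8.94 in HC, from 7.93 to 9.31 with a median of 9.05 in HC+RSV, from 7.93 to 9.55 with a median of 9.18 in HC+EZE and from 9.02 to 9.66 with a median of 9.51 in HC+RSV+EZE. The livers given both drugs were the least spread, with an SD of 0.22, and all groups overlapped. The difference of HC+RSV+EZE from HC was 0.59 ± 0.23, with an unadjusted p of 0.0168 and an adjusted p of 0.566 by limma.

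With chip as a block, 0 members were called in each of the 8 comparisons, where all genes gave 0%, 0.0565%, 0.113%, 0.531%, 0%, 1.02%, 0% and 0% in the order above. For ezetimibe averaged over rosuvastatin, 6 members then had an unadjusted p under 0.05, which is 12.5% of them beside 14.5% of all genes. They were Gsta2 (0.48 ± 0.23), Gstm3 (0.45 ± 0.19), Gstm5 (0.28 ± 0.13) and Gstp3 (0.33 ± 0.16), with positive estimates, and Ugt3a1 (-0.35 ± 0.13) and Ugt1a10 (-0.21 ± 0.10), with negative ones. The smallest adjusted p of the 6 was 0.216, for Ugt3a1. Gstm5 was higher with ezetimibe on 6 of 6 chips and Gsta2, Gstm3 and Gstp3 on 5 of 6, while Ugt3a1 and Ugt1a10 were higher on 0 of 6. These genes were picked by their p with chip as a block, so such counts add no support. Gsta1, Gsta4, Gstp1, Gstp2, Gstt2, Sult1c2 and Ugt1a6a were also higher on 5 of 6. The block does not remove array position, which ran with ezetimibe.

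Most of the members' variation lay within the diets, between livers and chips that cannot be told apart. The median within-group SD of the members was 0.51, beside 0.31 over all genes, and 39 of the 48 members lay above that value of all genes. Chip accounted for a median of 50.9% of the members' variation, beside 27.5% over all genes, and diet for 4.07%, beside 7.36%. By chance alone such a share is larger for 6 chips than for 4 diets. In limma's F test among the 6 chips, adjusted for diet and over all genes, 30 of 48 members were called, against a background of 27.2%. These were 6 of the 7 singly named genes, 3 of 4 Gsta, 5 of 6 Gstm, 5 of 9 other Gst, 0 of 3 Mgst, 3 of 3 Ugt1, 4 of 8 Ugt2 and Ugt3 and 4 of 8 Sult. Of the 20 genes with the smallest p among all 8853, 6 were members: Gstm3, Gsta2, Gsta1, Srxn1, Gstm1 and Sult5a1.

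**Figure D2:**
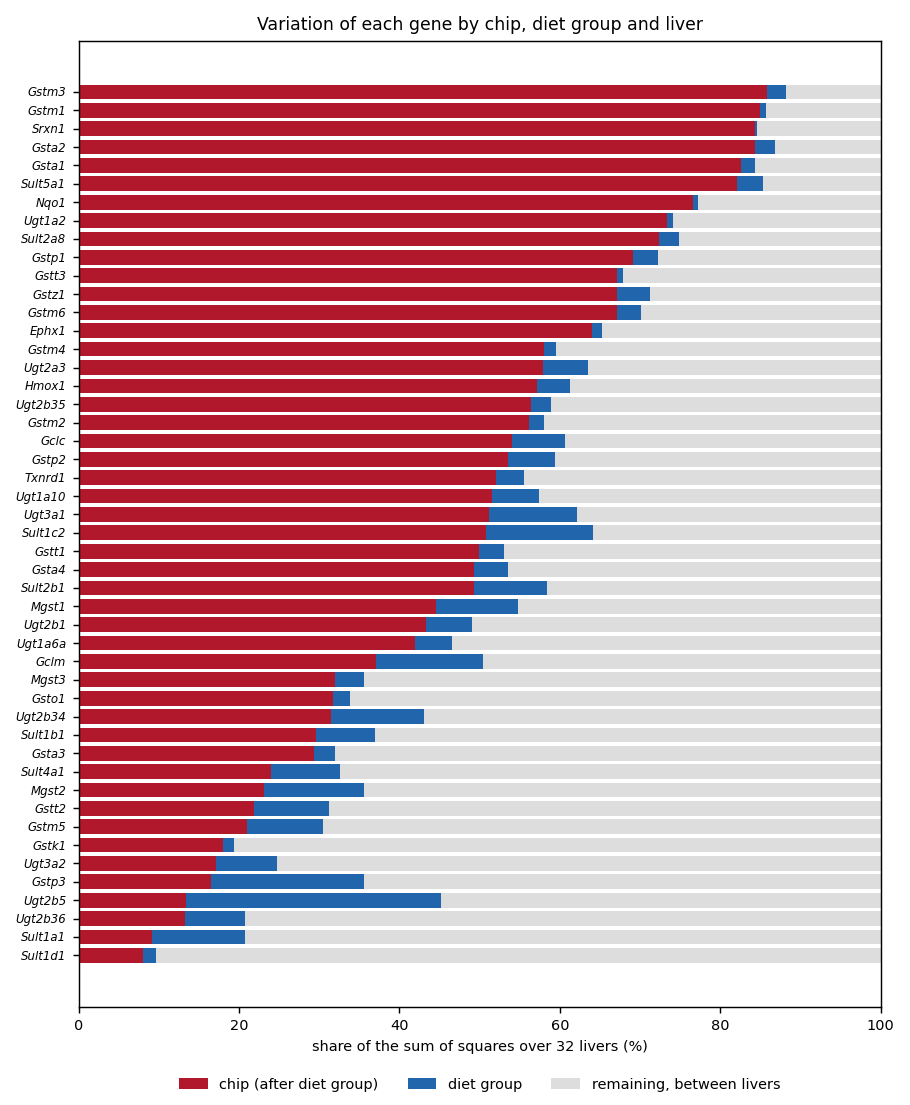
Share of each gene's sum of squares over 32 livers (%) taken by chip after diet (red), by diet (blue) and by the remaining spread between livers (grey). The chip share runs from 8.05% in Sult1d1 to 85.9% in Gstm3.

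The replicate numbers of the labels ran with the chips. The odd-numbered livers of every diet, 16 in all, lay on chips 1, 3 and 4, and the 16 even-numbered livers on chips 2, 5 and 6. This was noticed after the values had been seen, so the comparison of the 2 sets is a description with no test. The sources used here do not say what the numbers stand for, and liver, chip and anything that followed the numbering cannot be told apart. In 4 members, 8.33%, every even-numbered liver lay above every odd-numbered one, beside 0.147% of all genes, and 0 members had every even-numbered liver below, beside 0.0113%. Within each of the 4 diets taken alone the even-numbered livers lay above the odd-numbered in 5 members, Gsta2, Gstm1, Gstm3, Srxn1 and Nqo1, which is 10.4% beside 0.407% of all genes. The reverse held in 0 members and in 0.0339% of all genes.

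Gsta1 and Gsta2, alpha-class transferases that take up lipid peroxidation products, had the widest spread. In HC, Gsta1 was at 7.07, 12.15, 8.12, 10.94, 4.60, 10.39, 9.59 and 11.04 in replicates 1 to 8. In HC+RSV it was at 6.73, 9.71, 4.43, 9.44, 9.64, 10.81, 6.63 and 10.88 in the same order. In HC+EZE it was at 5.80, 11.81, 7.97, 10.11, 7.52, 11.94, 8.73 and 10.73. In HC+RSV+EZE it was at 4.26, 11.02, 8.31, 11.84, 9.76, 11.58, 5.33 and 10.40. In 3 of the 4 diets every even-numbered liver lay above every odd-numbered one; in HC+RSV, replicate 5 at 9.64 lay above replicate 4 at 9.44. The chip means of Gsta1 were 5.32, 10.27, 7.63, 8.43, 11.56 and 10.94 for chips 1 to 6, and the spread was as plain in the deposited intensities, whose chip medians ran from 5.6 on chip 1 to 4978.2 on chip 5. The chip F test of Gsta1 gave an adjusted p of 7.92e-08 by limma. Gsta2 had chip means of 7.33, 10.47, 8.31, 8.46, 11.38 and 10.96, and its highest odd-numbered liver, at 9.57, lay just below its lowest even-numbered one, at 9.58.

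Gsta1 (chr9:78230669-78242683) and Gsta2 (chr9:78331018-78347192) are neighbours and their upstream sequences are alike, which is why both are shown. RefSeq's promoter table (GRCm38.p6) holds 42 of the 48 members; in a global alignment of the 250 bases before the start sites of these 2 genes, the longest stretch without gaps is 136 bases, of which 110 are the same (80.9%). The stretch of Gsta1 is at chr9:78230499-78230634 on the plus strand and that of Gsta2 at chr9:78347183-78347318 on the minus strand. Each is placed by the start site in the promoter table, which for Gsta2 is base 78347145, inside the span given above. Both are written 5′ to 3′ along their gene, with the 26 bases that differ in capitals.
Gsta1: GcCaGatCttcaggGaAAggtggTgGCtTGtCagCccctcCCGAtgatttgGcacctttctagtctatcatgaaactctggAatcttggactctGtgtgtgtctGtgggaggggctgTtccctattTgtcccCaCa
Gsta2: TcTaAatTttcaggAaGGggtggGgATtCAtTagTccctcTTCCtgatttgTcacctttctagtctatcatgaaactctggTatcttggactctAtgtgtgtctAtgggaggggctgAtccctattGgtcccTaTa
A single probe stands for each gene, and whether either probe also reads the other transcript was not tested. Of the other alpha-class genes, Gsta4 had chip means from 7.97 on chip 1 to 9.35 on chip 6 and was called. Gsta3 was not called, with chip means from 12.86 to 13.19 and diet means from 13.02 to 13.10.

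Among the mu-class genes all 6 had a higher median in the even-numbered livers. Gstm3 (chr3:107963696-107969174) had chip means of 4.91, 7.63, 5.57, 5.51, 8.17 and 7.89; its odd-numbered livers ranged from 4.46 to 6.29 and its even-numbered ones from 7.02 to 8.70. The sets did not overlap, and among all 8853 genes Gstm3 ranked at 2 by the chip F test (adjusted p 9.87e-09 by limma). Gstm1 (chr3:108012250-108017973), whose odd-numbered livers ranged from 11.81 to 13.35 and even-numbered ones from 13.39 to 14.03, had an adjusted p of 1.27e-07 by limma. In HC replicates 1 to 8, Gstm3 was at 4.76, 8.54, 6.10, 7.30, 4.55, 8.04, 6.02 and 7.43, and the other diets alternated in the same way. The diet means of Gstm1 were 13.17 ± 0.70, 13.14 ± 0.68, 13.08 ± 0.69 and 13.24 ± 0.79, in the order used above. The medians of the 2 sets differed by 1.16 in Gstm6, 0.91 in Gstm4, 0.62 in Gstm2 and 0.20 in Gstm5, the last of which was not called. The other probe of Gstm6 differed by only 0.29 and was not called between chips (adjusted p 0.328 by limma).

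The pi- and theta-class genes went opposite ways. Gstp1 (chr19:4035411-4037912), the pi-class enzyme, had chip means of 12.02, 13.97, 12.63, 12.58, 13.82 and 14.02, with a median 1.77 higher in the even-numbered livers, and its sets overlapped (11.05 to 13.96 and 12.77 to 14.32). All 3 probes of Gstp1 gave a difference between 1.49 and 1.77. Gstp2 was 1.02 higher in the median. Gstt3, Gstt2 and Gstt1, theta-class transferases, had lower medians in the even-numbered livers, by -0.78, -0.65 and -0.61, and Gstt3 and Gstt1 were called. Gstz1, which acts in tyrosine breakdown, was also called, with a difference of -0.27, while Gstk1, Gsto1 and Gstp3 were not.

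The redox genes followed the same division in part. Srxn1 was at 8.93, 11.16, 8.43, 10.23, 8.29, 10.71, 9.65 and 10.08 in HC replicates 1 to 8, at 8.13, 10.27, 7.75, 10.72, 9.89, 10.62, 8.52 and 10.23 in HC+RSV, at 7.95, 11.10, 8.84, 10.43, 8.29, 10.62, 8.44 and 10.87 in HC+EZE and at 7.72, 11.10, 8.46, 10.35, 9.83, 10.75, 7.60 and 10.99 in HC+RSV+EZE. The sets did not overlap: the highest odd-numbered liver was at 9.89 and the lowest even-numbered one at 10.08. Its 2 other probes gave differences of 2.15 and 1.35 between the medians, beside 2.23 for the probe used. Nqo1 had chip means of 5.51, 7.21, 6.07, 6.07, 7.18 and 6.96 (adjusted p 4.82e-06 by limma). Txnrd1 was 0.81 higher in the even-numbered livers, Gclc 0.68 and Ephx1 0.63, all 3 called. Gclm was not called and differed by 0.02. Hmox1 was called with another pattern: its highest chip mean, 7.49, was on chip 4, which held odd-numbered livers, and the medians of its 2 sets were 0.08 apart.

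**Figure D3:**
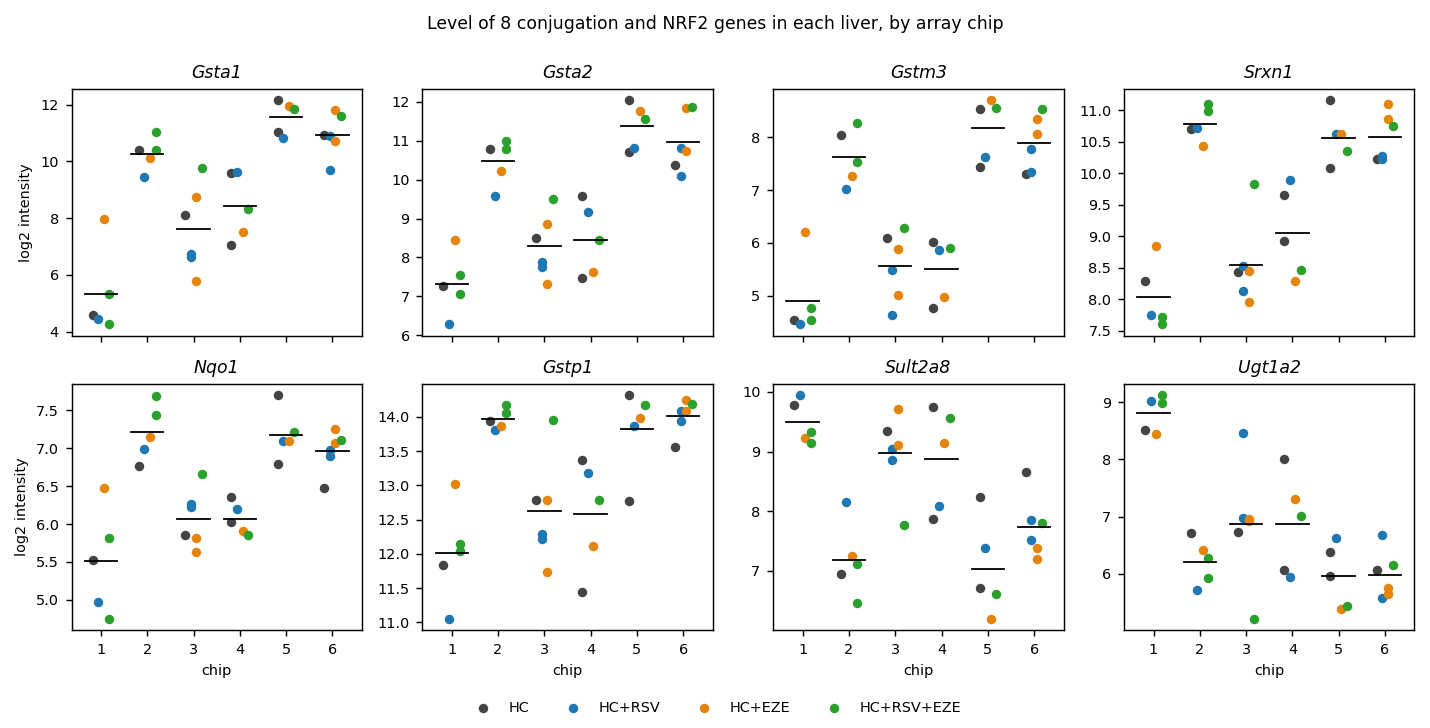
Log2 intensity of 8 genes in each of the 32 livers, by chip (1 to 6); the point colour gives the diet and the black line the chip mean. The means of chips 2, 5 and 6 lie above those of chips 1, 3 and 4 in Gsta1, Gsta2, Gstm3, Srxn1, Nqo1 and Gstp1 and below them in Sult2a8 and Ugt1a2, and the 4 diets are mixed within each chip.

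The glucuronosyltransferases and sulfotransferases that differed between chips mostly went the other way. Ugt1a2 had chip means of 8.82, 6.21, 6.88, 6.87, 5.96 and 5.98, with all 5 livers of chip 1 at 8.44 or above. Its diet means were 6.81 ± 0.95, 6.88 ± 1.26, 6.60 ± 1.02 and 6.77 ± 1.52. Ugt1a10 differed by -0.32 between the sets and Ugt1a6a by -0.21, both called; the 3 probes of Ugt1a6a disagreed in sign (-0.21, -0.08 and 0.20). Ugt3a1 differed by -0.58 and Ugt2a3 by -0.66, and both were called. Ugt2b35 ran with the Gst genes at 1.08, and Ugt2b1 at 0.47, also called. Ugt2b36 was not called, with chip means from 12.81 to 13.06.

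Sult2a8, which sulfates bile acids in mouse liver, had chip means of 9.49, 7.18, 8.97, 8.88, 7.03 and 7.73 and a median 1.88 lower in the even-numbered livers, at 7.31 against 9.19. Its sets overlapped between 7.77 and 8.65. Sult5a1 fell by 1.21 between the same medians. It was detected on all 16 odd-numbered arrays and missing from detection on 9 of the 16 even-numbered ones, so its low values are near background. Sult1c2 differed by -0.49 and was called. Sult2b1 was called too, with its lowest chip mean on chip 4, where it was detected on none of the 5 arrays. Sult1a1, which sulfates phenols, was not called, with chip means from 11.63 to 11.78 and diet means of 11.70 ± 0.13, 11.59 ± 0.21, 11.76 ± 0.16 and 11.74 ± 0.25. Mgst1, the membrane-bound transferase, was not called either, with diet means from 12.81 to 12.97.

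**Figure D4:**
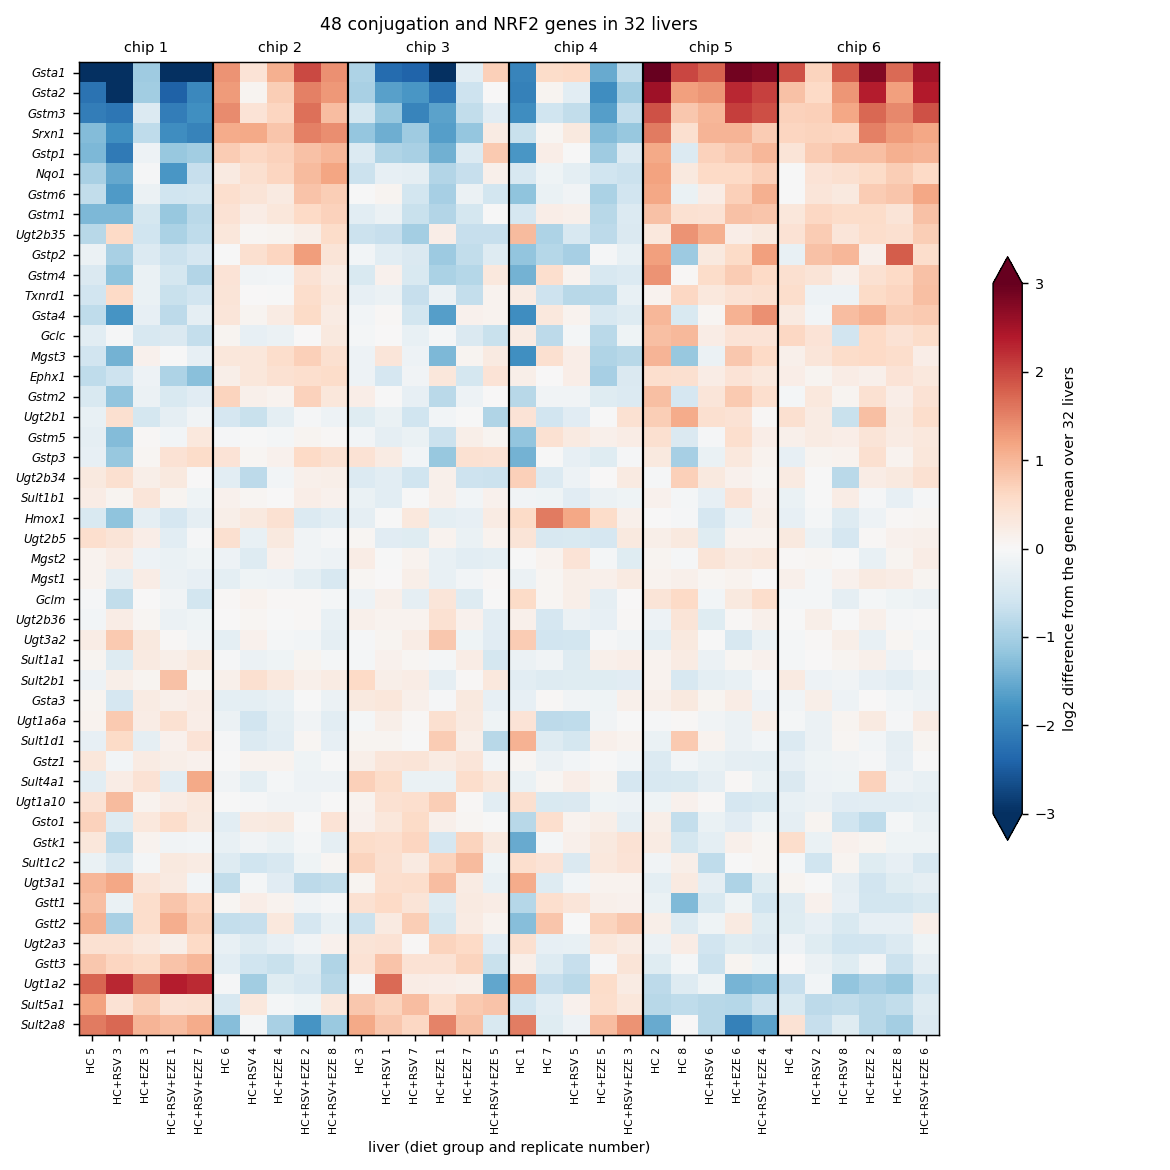
Log2 difference of each of the 48 genes from its own mean over 32 livers, with livers in columns ordered by chip and genes in rows ordered by the difference of the medians of even- and odd-numbered livers. Gsta1 (3.61) heads the rows and Sult2a8 (-1.88) ends them; colours end at 3 and -3.

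Other genes of the NRF2 pathway showed the same division in part. Of 31 listed genes 23 were measured, and 12 of them were called between chips, beside the 27.2% of all genes. Of the 23, 18 had a higher median in the even-numbered livers, beside 27 of the 48 members. The share of all genes with a higher median there is not given here. Cbr3, a carbonyl reductase, had the smallest chip p of all 8853 genes: its odd-numbered livers ranged from 4.69 to 9.04 and its even-numbered ones from 9.86 to 11.33, with medians 4.40 apart. Gpx2, a glutathione peroxidase, differed by 2.51, Slc7a11, the cystine carrier, by 1.19, Sqstm1 by 1.03 and Cbr1 by 1.01. Nfe2l2 itself, at a mean of 7.31, was not called and differed by -0.05, and Keap1 was called with a difference of -0.13. In the 8 drug comparisons 0 of these 23 genes were called.

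Of 17 measured genes on the list of xenobiotic receptors and their phase 1 targets, 10 were called between chips, beside 27.2% of all genes. Cyp2c37, Cyp2b10, Cyp2c50 and Cyp2c29, cytochromes regulated by the receptors CAR and PXR, were lower in the even-numbered livers by -0.77, -0.76, -0.66 and -0.62, and Cyp1a2 was higher by 0.71. Cyp3a11 was not called and differed by -0.07. A further list was drawn around glutathione, UDP-glucuronic acid and sulfate donors. It holds genes that supply them and also enzymes that use glutathione or split conjugates, such as Glo1 and Gusb. Of its 17 measured genes 8 were called between chips, beside the same 27.2%. Gss, which completes glutathione, was higher by 0.67 and Slc35d1, a carrier of UDP-glucuronic acid, by 0.70, and Glo1 was lower by -0.70. No gene of either list was called in the 8 drug comparisons. With chip as a block 1 was, for ezetimibe averaged over rosuvastatin, where 1.02% of all genes were called. Alas1, which starts heme synthesis, was 0.55 ± 0.13 higher with ezetimibe (adjusted p 0.0235 by limma), and higher on 6 of 6 chips. Without the block its difference was 0.50, with an adjusted p of 0.0863 by limma. Ezetimibe ran with array position here too. The agreement over chips follows in part from the choice of Alas1 by this test.

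Some markers of other cell types also differed between chips, where 27.2% of all genes were called, and their part in the result was not tested. Both of the 2 measured bile duct markers of 5 listed were called, with a mean of 4.44 to 5.31 in the odd-numbered and 5.01 to 5.87 in the even-numbered livers. Of 6 stellate cell markers 3 were called, with a mean of 6.41 to 7.13 against 6.76 to 7.57. Of 4 measured Kupffer cell markers 2 were called, with a mean of 8.02 to 9.52 against 7.61 to 8.72. Of 7 hepatocyte markers 2 were called, with a mean of 11.43 to 12.06 against 11.61 to 11.998. Pericentral hepatocyte markers had 4 of 6 called, with a mean of 9.66 to 10.28 against 9.34 to 9.84, and periportal ones 3 of 5, with a mean of 9.22 to 10.56 against 9.13 to 9.91. Endothelial markers had 2 of 5 called (5.85 to 6.31 against 6.02 to 6.28), T and B cell markers 0 of 4 (4.48 to 5.26 against 4.56 to 5.17) and erythroid markers 0 of 2 (9.39 to 10.88 against 9.32 to 10.85). The mean intensity before normalization was 185.9 ± 44.5 (SD, n = 16) in the odd-numbered and 192.6 ± 48.0 in the even-numbered arrays.

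The level of Nqo1 was set against that of 13 other members across the 32 livers. In permutation tests with 100000 resamples, 12 relations had an adjusted p under 0.05, 11 of them positive. The inverse one was with Ugt1a6a (r of -0.45, adjusted permutation p 0.0117). The relation with Gclm (r of 0.36, adjusted permutation p 0.0484) kept its call in 14 of the 32 repeats that left out 1 liver each. The livers fell into the 2 numbered sets, which alone can raise such values, so the relation was also taken within each set of 16. With Srxn1, Pearson's r was 0.73 (Spearman's rho 0.75, adjusted permutation p 0.00543) in the odd-numbered livers and 0.71 (rho 0.67, adjusted permutation p 0.0231) in the even-numbered ones. Without the 2 livers farthest from the median of Nqo1 it was 0.70 and 0.59, and only the first kept an adjusted permutation p under 0.05, at 0.0365. Ephx1 also passed in both sets, with r of 0.54 and 0.67, and in neither without the 2 farthest livers.

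Gsta1, Gsta2, Gstm1 and Gstm3 ran with Nqo1 in the odd-numbered livers, with r of 0.78, 0.75, 0.78 and 0.67, and did not pass in the even-numbered ones, with r of 0.26, 0.40, 0.50 and 0.40. The difference between the sets was not tested. Of these 4, Gstm1 alone passed in the odd-numbered livers without the 2 farthest, with r of 0.72. Hmox1 had r of 0.64 in the odd-numbered livers, which fell to 0.46 without the 2 farthest, and -0.09 in the even-numbered ones. Gclc and Txnrd1 had r of -0.20 and -0.08 in the odd-numbered livers and 0.03 and -0.05 in the even-numbered ones, beside 0.50 and 0.56 over all 32 livers. After diet and chip had been taken out of both genes, r over the 32 livers was 0.70 for Srxn1, 0.68 for Gstm1, 0.63 for Gsta2, 0.62 for Gsta1, 0.53 for Gstm3, -0.13 for Gclc and -0.04 for Txnrd1.

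**Figure D5:**
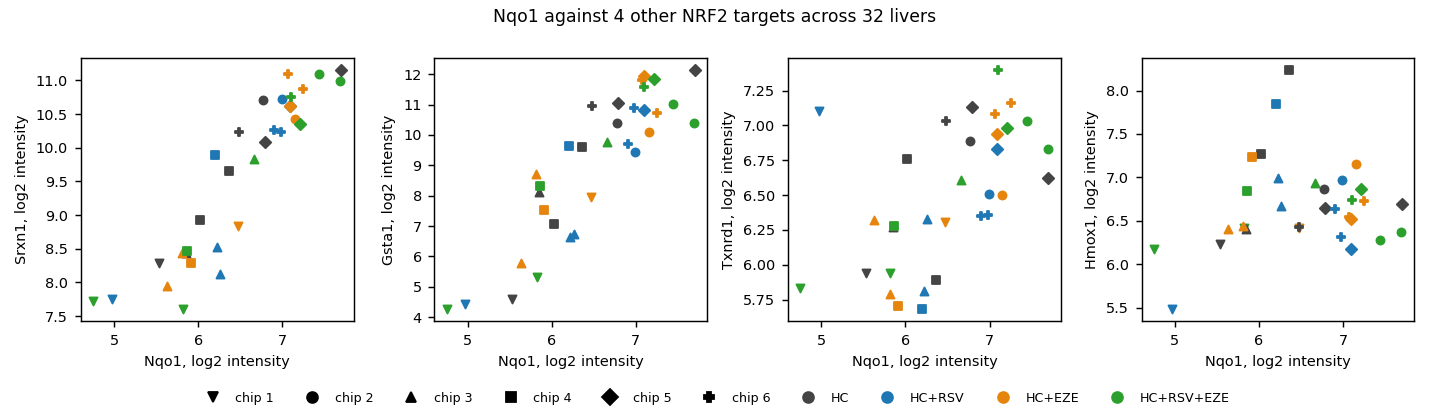
Log2 intensity of Nqo1 (horizontal) against Srxn1, Gsta1, Txnrd1 and Hmox1 (vertical) in 32 livers; the symbol gives the chip and the colour the diet. Livers of chips 2, 5 and 6 lie at the right, and Srxn1 still runs with Nqo1 within them (r of 0.71 in the 16 even-numbered livers).

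The 300 bases around each start site in RefSeq's table (250 before and 50 after, GRCm38.p6) were searched on both strands for the core of the antioxidant response element, TGACNNNGC, whose reverse complement is GCNNNGTCA. Some genes have several start sites in the table, and a match at any of them was counted. It stood in 6 of the 42 members with a promoter in the table, 14.3%, beside 14.0% of 27025 genes. Among members called between chips it stood in 2 of 27 and among those not called in 4 of 15. The windows of a called and an uncalled member, with the match in capitals and 20 bases on either side, show that the same core lay near genes that did and did not differ between chips. The window of Txnrd1 is chr10:82859094-82859142 and that of Gclm chr3:122245403-122245451, both on the plus strand with the match on the minus strand. That of Txnrd1 belongs to 1 of its 3 start sites in the table, at base 82859206, which lies inside the gene.
Txnrd1: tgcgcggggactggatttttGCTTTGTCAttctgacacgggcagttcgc
Gclm: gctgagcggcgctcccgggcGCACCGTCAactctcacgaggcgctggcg
A match describes these letters in this window, and response elements can lie farther from the start.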

How the data were processed

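The authors deposited probe intensity for 32 arrays, not normalized between arrays and already background-subtracted, since some values lie below 0; the sources used here do not say how. Beside each intensity the authors deposited a detection value, a fraction (detection p is 1 minus it), and they deposited a second table of log2 values; the submitters' processing notes name limma. Here limma 3.58.1 (R 4.3.3) fitted its normal-exponential background to the intensities from the detection p and added an offset of 16. Log2 was then taken and quantile normalization applied to the log2 values. A probe was kept if its detection p was under 0.05 on 8 or more arrays, and the brightest probe stood for each of 8853 genes, named through the platform's annotation updated by RefSeq's table.

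The 4 diets were fitted with lmFit and eBayes on all 32 arrays (28 residual degrees of freedom) and p-values adjusted by Benjamini-Hochberg over all genes, with a threshold of 0.05. The labels give individual livers, so the spread behind each p-value is that of animals and arrays together. Chips were tested with limma's F test after diet. The members, lists and tests were chosen with earlier results of these data known. Genes described in full were the singly named ones, the brightest of each family, up to 8 a comparison with an unadjusted p under 0.05, the 6 with the largest SD within diets and the 5 with the smallest chip p; others named were chosen after their values were seen. Between same-numbered livers of different diets, the deviations had a correlation over 0.1 in 31 of 48 pairs (range -0.237 to 0.765). Of these 48 pairs 8 shared a chip, and all shared the odd or even set of chips. No such share is given for livers of different numbers, so a pairing by number is not shown by these values. The number was kept out of the main model and was used as a block in an alternative. Promoters were aligned with biopython 1.88. Alternatives were other background corrections, normalizations, filters, blocks and samples. Methods were tested on simulated data.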

Additional observations from a re-analysis of the deposited data

Results flagged for a closer look

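Of 192 sets of 8 livers (48 genes in 4 diets), 13 held a liver far from the other 7 by Dixon's 95% criterion, where chance alone gives about 1 in 20. HC+RSV replicate 3, the array with the lowest mean correlation with the rest, accounted for 7 of them: it was low for Gstm2 (10.78, next 11.72), Gstm5 (6.02), Gstm6 (8.61), Gstp3 (7.93), Mgst3 (7.52) and Nqo1 (4.97) and high for Ugt2b5 (5.59, next 5.02). HC+RSV+EZE replicate 5 was low for Sult1a1 at 11.18 and for Ugt2b34 at 6.70. HC+EZE replicate 1 was high for Sult1d1 at 10.03, and HC+EZE replicate 7 was low for Ugt2b34 at 6.72. HC replicate 3 was high for Sult4a1 at 5.42, and HC replicate 7 low for Ugt2b5 at 4.73.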

How the results depend on the processing

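The count of members called stayed 0 in each of the 8 drug comparisons and in the F test among diets under every alternative run, the replicate block included (0 called, as without it), and between chips it was 29 to 37 under the alternatives run, beside 30. The chip test was not run with chip or the replicate number as a block, since odd and even numbers lie on different chips and part of the chip differences cannot be told apart from the numbers. For the list of xenobiotic receptors the count over the 8 comparisons, 0, was 1 with chip as a fixed or random block, with the replicate block and with array weights, 2 without the 4 arrays of lowest mean correlation and 4 without them and with chip as a block; leaving out single livers gave 0 to 1, with 1 without HC replicate 8, HC+RSV replicate 8 or HC+EZE replicate 1. The cause was not tested. Of the 13 relations with Nqo1, 12 passed over all livers; within the odd-numbered livers without the 2 farthest 2 passed, within the even-numbered 2 and without their 2 farthest 0, which are fewer livers. Signs turned for Ugt2b5 with rosuvastatin averaged over ezetimibe (0.0103 with array position as a covariate) and for r of Nqo1 with Gclc (-0.126 in residuals, -0.162 without the 2 farthest livers as well; -0.197 and -0.241 in the odd-numbered livers with and without the 2 farthest; -0.0761 in the even-numbered without them), with Txnrd1 (-0.0398 and -0.261 in residuals; -0.0778 in the odd- and -0.0453 in the even-numbered), with Hmox1 (-0.122 without the 2 farthest livers, -0.000631 without the 4 arrays, -0.0901 and -0.311 in the even-numbered with and without the 2 farthest; -0.00233 to 0.217 leaving out single livers), with Gclm (-0.173 in the even-numbered without the 2 farthest) and with Ugt1a6a (0.0169 with equal medians). The odd and even sets were added after seeing the data. Near-background values of Gsta1, Gstm3 and Sult5a1 limit the size of their chip differences.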
